A study of Homo sapiens with 6 samples.

Results

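The NF-kB family consists of transcription factor subunits encoded by NFKB1, NFKB2, REL, RELA and RELB, and it is restrained by genes that it switches on itself. Those considered here were NFKBIA, NFKBIE, NFKBIZ, TNFAIP3 and BIRC3. The 10 genes, 5 subunits and 5 feedback inhibitors, were taken by name from all 6 arrays of the study, on which they were measured by 11 probes out of 34127 gene probes and 25940 gene names in all. NFKB1, NFKB2, NFKBIA and 1 RELA probe had 10 spots each per array, and the other probes had 1. The arrays compared 2 isogenic lines derived from T47Dco, a luminal human breast cancer cell line, which had been grown as tumors in ovariectomized mice. pLUM, the pure luminal line (n = 3), came from a tumor under estradiol (E), was sorted as CLD3+ CD49f-, was kept in 1 nM E and received 1 nM E for 72 h. pLB, the pure luminobasal line (n = 3), came from a tumor under E plus progesterone, was sorted as CLD3- CD49f+ and was kept without hormone (E withdrawn, EWD). No hormone group was common to both lines, so that line and hormone cannot be told apart, and each line stems from a single tumor. Before RNA extraction the cells were stained for cytokeratin 5 (CK5) and sorted again, but whether the CK5+ or the CK5- cells of each line went onto the arrays is not given. The methods describe the samples as triplicate sorts, so that p-values measure the spread between sorts of a line, which may be technical.

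NF-kB subunits act as dimers. NFKB1 and NFKB2 encode precursors whose processed forms bind DNA, whereas RELA, REL and RELB carry the domain that activates transcription. In resting cells the dimers are held in the cytoplasm by IkB proteins. In the canonical route, receptors such as those for TNF activate the IkB kinase complex, IkB is degraded, and dimers containing RELA or REL enter the nucleus. In the alternative route, receptors such as CD40 and the lymphotoxin beta receptor stabilize the kinase MAP3K14, which leads to processing of NFKB2 and release of dimers with RELB. Both routes depend largely on protein modification and location, which an RNA array does not measure.

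The 75th percentile of intensity was between 449 and 869 on the 6 arrays, and no gene spot was saturated. All values below are log2 signals relative to this percentile of the same array, and a difference is pLB minus pLUM on this log2 scale. A gene was called when its limma adjusted p was under 0.05 and its difference was at least 2-fold. All 6 luminal markers were called lower and all 8 luminobasal markers higher in pLB. Of 5 stromal and endothelial markers, PDGFRB, DCN and PECAM1 were well above background on no array, and COL1A1 and CDH5 differed by -0.56 and 0.51 without being called. Of 6 leukocyte markers, 2 were called higher in pLB, CD79A by 4.20 and CD68 by 1.52, while PTPRC, which defines leukocytes, differed by -0.47 (adjusted p = 0.415) on its representative probe and was called lower, at -1.20, on a second. CD14 was not called higher. CD3E and MS4A1 did not pass the filter on signal above background and were not tested. The summed signal of the leukocyte markers, as a multiple of the 75th percentile, was 1.05 to 1.73 in pLUM and 15.4 to 34.3 in pLB. This sum takes in all 6 markers, of which 2 were called higher, and does not show the share of each. Their part in the results below was not tested.

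Of the 10 genes, RELB and TNFAIP3 were called higher in pLB and none was called lower. By limma 0 were lower at an unadjusted p under 0.05, and the test named in the methods also called 0 lower. As RNA was pooled over cells, a larger share of expressing cells and more RNA per cell cannot be told apart. All 11 probes were well above background on all 6 arrays. Among all 17670 genes tested, 22.7% were called higher and 23.0% lower in pLB, so that 2 of 10 is close to the background share. Signals of the lines did not overlap for RELB, TNFAIP3, NFKB1 and BIRC3, with pLB above in each, against 69.1% of all genes in either direction. The median difference was 0.38 over the 5 subunits and 0.13 over the 5 inhibitors, compared with 0.04 over all genes tested.

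RELB, the subunit of the alternative route, differed most. Its probe (chr19:45541385-45541444, plus strand of hg19) read 1.66, 1.50 and 1.59 in replicates 1, 2 and 3 of pLUM, and 3.93, 3.91 and 3.91 in those of pLB. All 3 pLB arrays lay above all pLUM arrays, and the pLB arrays were nearly identical. Mean signal was 1.58 ± 0.08 (SD, n = 3) in pLUM and 3.92 ± 0.0095 (n = 3) in pLB. The difference was 2.33 ± 0.15 (SE), or 5.04-fold with a 95% interval of 3.96 to 6.42, at a limma adjusted p of 1.34e-05.

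NFKB2, the precursor that pairs with RELB, was not called. Its probe (chr10:104161053-104161229, plus strand) covers 177 bases of the genome with 60 bases and so crosses an intron. Signals were -1.89, -1.92 and -1.71 in pLUM and -1.70, -1.60 and -1.79 in pLB, and the lines overlapped. The difference was 0.14 ± 0.16 (limma adjusted p = 0.455), and its 95% interval of 0.854-fold to 1.43-fold does not reach 2-fold in either direction.

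NFKB1, the precursor that pairs with RELA and REL, was higher in pLB but not called. Its probe (chr4:103537856-103537915, plus strand) gave -1.63, -1.65 and -1.25 in pLUM and -0.32, -0.42 and -0.97 in pLB. The lines did not overlap, although pLUM replicate 3 and pLB replicate 3 lay nearest to each other. The difference of 0.94 ± 0.23, or 1.92-fold (1.32 to 2.80), passed the limma test (adjusted p = 0.0094) but not the 2-fold threshold. Without pLB replicate 3 or pLUM replicate 3 it was 1.14 and 1.07, and with spike-in scaling 1.19, and was called. Without any other single array it was 0.81 to 0.88, and with normexp background correction 0.67, and was not called. At the adjusted p alone, 63.4% of all genes passed, and 4 of the 10 genes did so: NFKB1, RELB, TNFAIP3 and BIRC3.

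RELA, the main activating subunit of the canonical route, was measured by 2 probes. The brighter (chr11:65421651-65421710, minus strand) gave -1.52, -1.35 and -0.72 in pLUM and -0.44, -0.63 and -1.39 in pLB. These ranges overlapped, with replicate 3 of either line apart from the other replicates of its line. The difference was 0.38 ± 0.32 (limma adjusted p = 0.327; 0.776-fold to 2.18-fold). The second probe (chr11:65421986-65422045, minus strand) gave -3.34, -3.16 and -2.72 in pLUM and -2.45, -2.57 and -2.64 in pLB, which did not overlap. It differed by 0.52 ± 0.20 (limma adjusted p = 0.0573). The RELA probes thus had the same sign, and neither was called.

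REL, an activating subunit best known from lymphoid cells, varied more within pLUM than between lines. Its probe (chr2:61149596-61149655, plus strand) gave -2.39, -2.76 and -1.38 in pLUM and -2.16, -2.12 and -1.99 in pLB. pLUM replicate 3 was the highest of all 6 arrays and pLUM replicate 2 the lowest. The difference was 0.08 ± 0.34 (limma adjusted p = 0.841), and the interval of 0.607-fold to 1.85-fold leaves room for moderate differences in either direction. Without pLUM replicate 1 or 2 the sign turned, to -0.02 and -0.21.

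**Figure D1:**
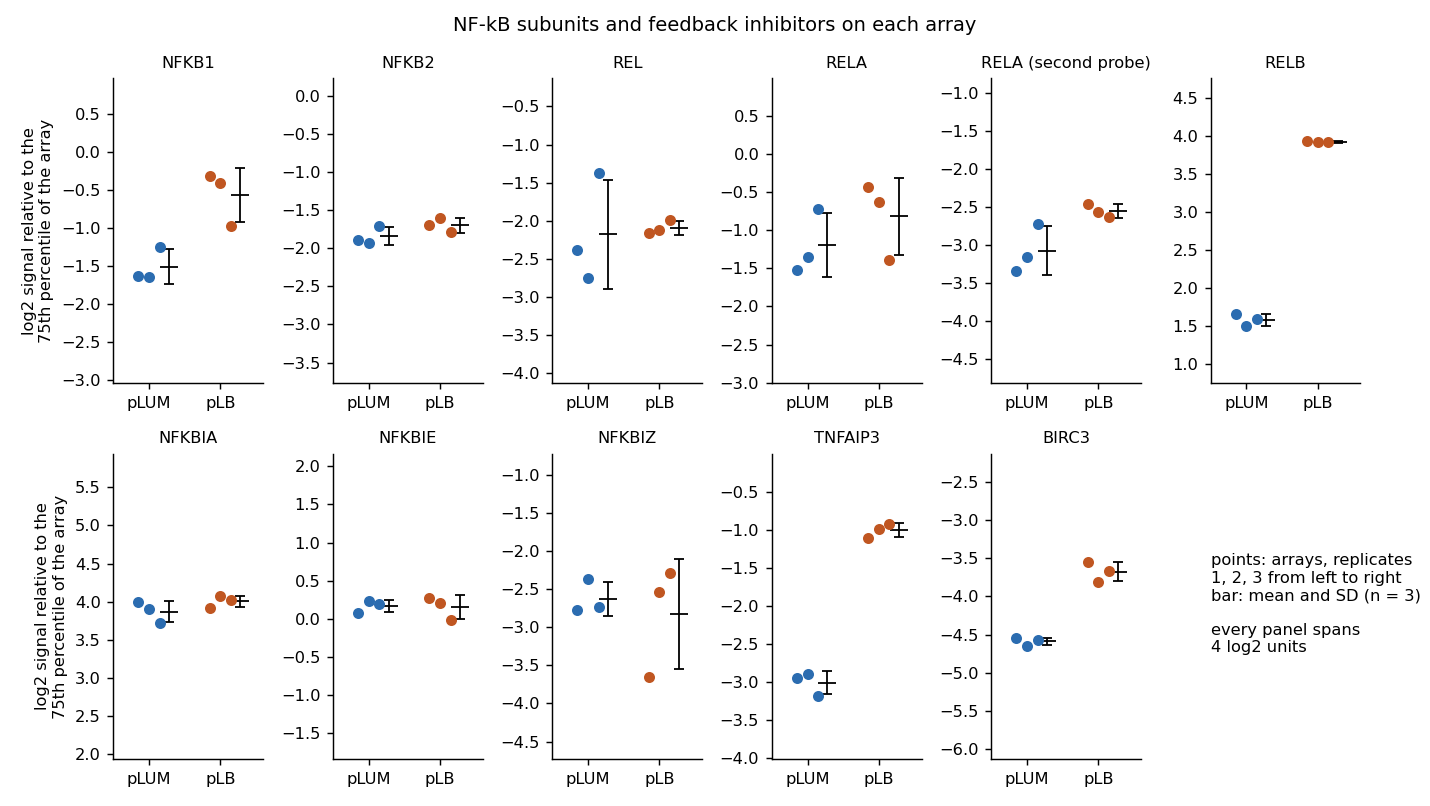
Log2 signal of each of the 11 probes relative to the 75th percentile of its array (vertical axis) in pLUM (blue) and pLB (orange). Points are arrays, the bars beside them give mean and SD (n = 3), and every panel spans the same range. RELB and TNFAIP3 separated the lines by 2.33 and 2.00, whereas NFKB2, REL, NFKBIA, NFKBIE and NFKBIZ overlapped.

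Among the feedback inhibitors, TNFAIP3 alone was called in the fit over all arrays. It encodes A20, an enzyme that edits ubiquitin chains and shuts off signaling upstream of the IkB kinases. Its probe (chr6:138203679-138203738, plus strand) gave -2.95, -2.89 and -3.18 in pLUM and -1.11, -0.99 and -0.93 in pLB. Every pLB array was above every pLUM array, by far more than the spread within either line. Means were -3.01 ± 0.15 (SD, n = 3) and -1.01 ± 0.09 (n = 3). The difference was 2.00 ± 0.16 (SE), or 4.00-fold (3.07 to 5.22; limma adjusted p = 4.43e-05). With normexp background correction it was 1.08 (adjusted p = 0.00966), which still passed both thresholds.

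BIRC3, a ubiquitin ligase of TNF receptor complexes that also limits MAP3K14, was dim in both lines. Its probe (chr11:102208356-102208415, plus strand) gave -4.55, -4.65 and -4.57 in pLUM and -3.55, -3.81 and -3.67 in pLB, without overlap. The difference was 0.92 ± 0.16, or 1.89-fold (1.46 to 2.43; limma adjusted p = 0.00166), just under the 2-fold threshold, and with spike-in scaling it was 1.17 and called. With normexp background correction the sign turned, to -0.11 (adjusted p = 0.796).

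NFKBIA encodes IkB alpha, the inhibitor that classically rebinds nuclear NF-kB after induction. Its probe (chr14:35870788-35870847, minus strand) was bright on all arrays, with 3.99, 3.90 and 3.72 in pLUM and 3.92, 4.07 and 4.02 in pLB. The lines overlapped and differed by 0.13 ± 0.16 (limma adjusted p = 0.493), with an interval of 0.846-fold to 1.42-fold. NFKBIE, which encodes IkB epsilon, gave 0.08, 0.23 and 0.19 in pLUM and 0.27, 0.21 and -0.02 in pLB (chr6:44226558-44226617, minus strand). Its difference was -0.01 ± 0.16 (limma adjusted p = 0.957; 0.762-fold to 1.29-fold), and its sign changed with the array left out, from -0.07 to 0.08. For both IkB genes a 2-fold difference lay outside the 95% interval.

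NFKBIZ encodes a nuclear IkB that cooperates with NF-kB at selected promoters. Its probe (chr3:101578904-101578963, plus strand) gave -2.78, -2.37 and -2.74 in pLUM and -3.65, -2.54 and -2.29 in pLB. pLB replicate 1 was the lowest and pLB replicate 3 the highest of all arrays. The difference was -0.20 ± 0.36 (limma adjusted p = 0.648), and without pLB replicate 1 it was 0.21.

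The 3 pLUM arrays and pLB replicate 1 were on slide 1, and pLB replicates 2 and 3 were on slide 2. With slide as a block the fit compares only pLB replicate 1 with the pLUM arrays, and this lone array is assumed to vary like the others. RELB then differed by 2.35 (limma adjusted p = 0.000308) and TNFAIP3 by 1.90 (0.00095), close to the values over all arrays. NFKB1 at 1.19 (adjusted p = 0.0177) and BIRC3 at 1.04 (0.00881) were called higher within the slide, and NFKBIZ at -1.02 (0.0188) was called lower. The remaining probes differed by 0.01 for REL, 0.05 for NFKBIA, 0.11 for NFKBIE, 0.14 for NFKB2, and 0.76 and 0.62 for the RELA probes, and none of these was called. The count thus changed from 2 higher and 0 lower to 4 higher and 1 lower.

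**Figure D2:**
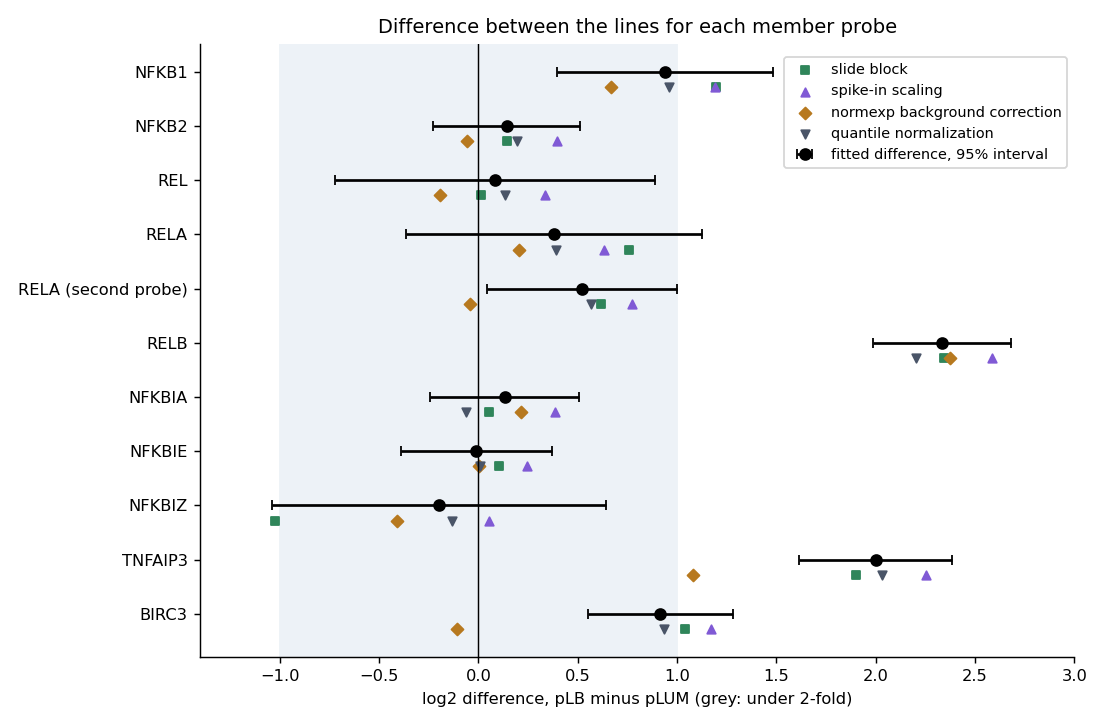
Log2 difference, pLB minus pLUM (horizontal axis), for each of the 11 probes, as fitted over all arrays with its 95% interval (black) and under 4 other settings (colored symbols). Grey marks differences under 2-fold. RELB and TNFAIP3 lay outside it in all settings shown, and NFKBIZ reached its edge with slide as a block. NFKB1 and BIRC3 lay near its edge except with normexp background correction, where they were at 0.67 and -0.11.

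Since several of these genes are textbook NF-kB targets, their promoters were searched for the kappaB consensus, the DNA sequence that NF-kB dimers bind, on both strands of RefSeq windows from 250 bases before to 50 bases after each annotated start (GRCh38.p14). Of the 10 genes, 8 had windows, 13 in all, and 7 of the 8 held at least 1 match: NFKB1, NFKB2, REL, NFKBIA, NFKBIZ, TNFAIP3 and BIRC3. RELA had 2 windows, neither with a match. Of all 27305 genes with a window, 1937, or 7.09%, held at least 1 match. The consensus occurred in 2075 of 35116 windows, or 5.91%, and the core GGGANTTTC, which shares part of its letters with the consensus and can also match elsewhere, in 1.28%. The 250 bases before the start of TNFAIP3, which was called, are shown with those of NFKB1, BIRC3 and NFKBIA, which were not, since all 4 hold the consensus. Sequences run 5′ to 3′ along the gene, with matches on either strand in capitals.
TNFAIP3 (chr6:137867009-137867258, plus strand): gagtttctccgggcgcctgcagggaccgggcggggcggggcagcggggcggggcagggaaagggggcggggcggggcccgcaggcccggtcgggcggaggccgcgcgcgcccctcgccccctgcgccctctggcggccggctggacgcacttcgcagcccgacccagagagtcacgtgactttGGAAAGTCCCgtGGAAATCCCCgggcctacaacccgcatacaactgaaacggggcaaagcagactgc
NFKB1 (chr4:102501109-102501358, plus strand): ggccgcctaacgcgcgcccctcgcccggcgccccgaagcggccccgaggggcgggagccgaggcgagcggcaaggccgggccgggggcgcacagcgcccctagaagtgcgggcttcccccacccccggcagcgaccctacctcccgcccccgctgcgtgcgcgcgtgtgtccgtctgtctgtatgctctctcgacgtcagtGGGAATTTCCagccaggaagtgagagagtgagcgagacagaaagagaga
BIRC3 (chr11:102317234-102317483, plus strand): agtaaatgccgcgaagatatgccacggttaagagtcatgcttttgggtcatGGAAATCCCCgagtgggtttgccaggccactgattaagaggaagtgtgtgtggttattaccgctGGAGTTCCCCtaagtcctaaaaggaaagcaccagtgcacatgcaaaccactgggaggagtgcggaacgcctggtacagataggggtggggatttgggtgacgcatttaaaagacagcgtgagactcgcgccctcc
NFKBIA (chr14:35404750-35404999, minus strand): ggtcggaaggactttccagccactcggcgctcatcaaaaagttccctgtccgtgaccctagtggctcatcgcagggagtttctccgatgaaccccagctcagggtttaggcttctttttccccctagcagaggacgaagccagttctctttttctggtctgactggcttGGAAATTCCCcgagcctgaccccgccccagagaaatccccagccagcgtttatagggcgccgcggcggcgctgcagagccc

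TNFAIP3 had 2 matches close together, whose first bases lay 67 and 55 bases before the start. BIRC3 also had 2, at 199 and 135 bases, whereas NFKB1 had 1 at 49 bases and NFKBIA 1 at 81 bases. A pair of matches was thus found both in a gene that was called and in a gene that was not, and NFKBIA, with the consensus in this window, differed by 0.13. Among tested genes with a window, 26.2% of the 960 that held the consensus were called higher in pLB, and 24.4% of the 9449 that did not. Called lower were 19% with and 22.1% without the consensus, and the median differences were 0.16 and 0.09. These matches describe the letters in these windows, and binding was not measured.

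**Figure D3:**
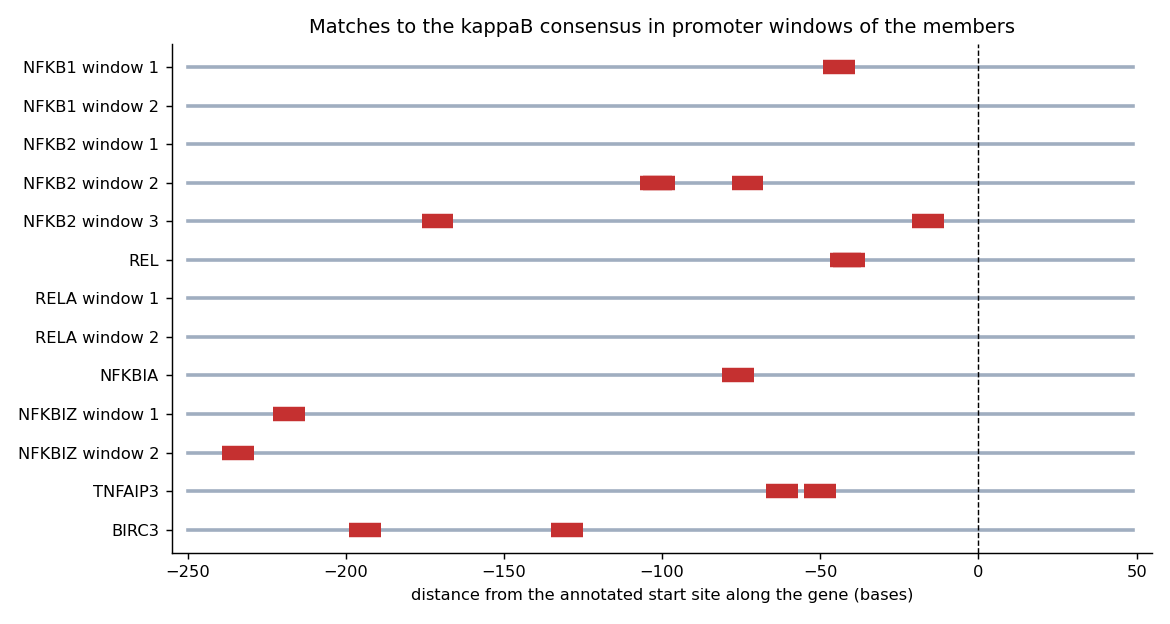
Matches to the kappaB consensus (red) in the 13 RefSeq promoter windows of 8 genes (one line per window), by distance in bases from the annotated start site (dashed line). Matches were found in 9 windows. With overlapping matches counted, the TNFAIP3, BIRC3 and REL windows held 2 each, and the NFKB2 windows held 0, 3 and 2.

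To place the called genes, the gene outside all lists with the nearest profile over the 6 arrays was sought among 13036 named genes, after each profile was centred on its mean. For TNFAIP3 it was KIF2A, which encodes a kinesin motor and was well above background on all 6 arrays, at a root mean square distance of 0.05 log2 units. In all, 17 genes lay within 0.1 log2 units of TNFAIP3, so that this profile does not single out KIF2A. For RELB it was KCNV1, which encodes a potassium channel subunit, but KCNV1 was well above background on no pLUM array, so that its profile there is not a measured level and no distance is given.

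Upstream of the subunits, receptors and TNF family ligands were mostly higher in pLB. Of 25 such genes, 18 were tested, of which 12 were called higher and 4 lower, or 66.7% and 22.2%. Of all genes tested, the background for this and the following lists, 22.7% were called higher and 23.0% lower. The share called lower was thus close to that of all genes. A gene could pass the filter through 1 line alone. The 8 whose representative probe was well above background on all 6 arrays were therefore also counted, and 7 of these were called higher. The share of all genes under that filter is given below with the target genes. NGFR, the low-affinity neurotrophin receptor, was well above background on no pLUM array and was at least 71.2-fold higher in pLB (adjusted p = 2.81e-06). The Toll-like receptors TLR1 and TLR2, which sense bacterial lipopeptides, were likewise below this level in pLUM and at least 7.24-fold and 5.57-fold higher. The receptors named next, chosen for the alternative route after their values were seen, did not all differ. CD40 was higher by 3.24 ± 0.22 and LTBR by 2.44 ± 0.38, and the ligand LTB by 2.38 ± 0.21. TNFRSF12A, from the same list, was also called higher, by 2.53 ± 0.16. TNFRSF13C, the BAFF receptor, differed by 0.42 and was not called (limma adjusted p = 0.0781), and TNFRSF11A, known as RANK, had no array with signal well above background.

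Of the 4 called lower, TNF, the classical activator of the canonical route, was well above background on every pLUM array and on no pLB array. It was at least 13.4-fold lower in pLB (adjusted p = 1.95e-06). TLR5, the flagellin receptor, was lower by 3.82 ± 0.22 on its representative probe, which was well above background on 2 pLB arrays, whereas its second probe, well above background on all 6 arrays, overlapped between the lines and differed by -0.29 (limma adjusted p = 0.353). The ligands TNFSF13B, known as BAFF, and TNFSF12, known as TWEAK, were lower by 1.67 ± 0.33 and 1.66 ± 0.26.

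Kinases and adaptors, which carry the signal from receptors to IkB, showed no such preponderance. Of 31 tested genes out of 33, 5 were called higher and 7 lower, or 16.1% and 22.6%. MAP3K14, the kinase of the alternative route, was higher by 1.66 ± 0.17 (limma adjusted p = 0.000142). IRAK3, a brake on Toll-like receptor signaling, was higher by 2.79 ± 0.36, CARD10, a scaffold for NF-kB activation, by 1.75 ± 0.16, and IRAK1, a kinase of Toll-like receptor signaling, by 1.37 ± 0.18, although its second probe, at 0.91, was not called. BTRC, which marks phosphorylated IkB for degradation, was lower by 1.96 ± 0.17. The 3 core subunits of the IkB kinase complex, also named after their values were seen, were not called by their representative probes: CHUK differed by -0.82, IKBKB by -0.68 and IKBKG by -0.52. CHUK passed the limma test (adjusted p = 0.00388) but not the 2-fold threshold, whereas IKBKB (0.146) and IKBKG (0.0573) did not pass the test on these probes. The other IKBKB probes disagreed in size, since 1 was called lower, at -1.98 (limma adjusted p = 0.000512), and 1 differed by -0.98 (adjusted p = 0.00306).

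Other inhibitors were divided, with 3 of 15 tested genes called higher and 3 lower, or 20% each. TRAF3, which promotes degradation of MAP3K14, was higher in pLB by 2.21 ± 0.18. TNIP1, a binding partner of A20, was higher by 2.02 ± 0.19, and PDLIM2, which promotes turnover of nuclear RELA, by 1.23 ± 0.29. CYLD, another deubiquitinase that acts on this pathway, was lower by 2.01 ± 0.35. NLRC5, of the NOD-like receptor family, and the nuclear IkB gene NFKBID were lower by 1.42 ± 0.32 and 1.14 ± 0.24. The A20 gene and its partner TNIP1 were thus both higher, whereas CYLD was lower. TNIP2, TAX1BP1 and ITCH of the same list, also named after their values were seen, differed by 0.38, 0.35 and -0.62 and were not called.

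Of 39 NF-kB target genes, 28 were tested, of which 17 were called higher in pLB and 5 lower, or 60.7% and 17.9%. Of the 20 whose representative probe was well above background on all 6 arrays, 9 were called higher and 5 lower, or 45% and 25%, compared with 20.6% and 20.5% of all genes under that filter. The median difference over these 20 genes was 0.61, compared with 0.05 over all genes under that filter. CXCL1, a neutrophil chemokine, was well above background on no pLUM array and at least 929-fold higher in pLB on its representative probe. Its second probe, likewise dim in pLUM and called, gave a bound of at least 106-fold. PTGS2, the inducible cyclooxygenase, was at least 20.8-fold higher. PLAU, the urokinase plasminogen activator, differed by 7.87 ± 0.20, and the chemokine CXCL2, well above background on 1 pLUM array, by 6.78 ± 0.34.

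Targets lower in pLB, beside CYLD and NFKBID, were CFLAR, which restrains caspase 8 activation at death receptors, by 1.38 ± 0.38, TNFAIP2 by 1.25 ± 0.20 and TRAF1, an adaptor of TNF receptors, by 1.15 ± 0.21. The CFLAR probes disagreed, since another was called at -1.46 but the last, well above background on all 6 arrays, overlapped between the lines at -0.05 (limma adjusted p = 0.835). IL6, CCL5 and VCAM1, also named after their values were seen, were well above background on no array of either line. Target lists such as this hold genes that other factors also regulate, so that their counts do not measure NF-kB activity.

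**Figure D4:**
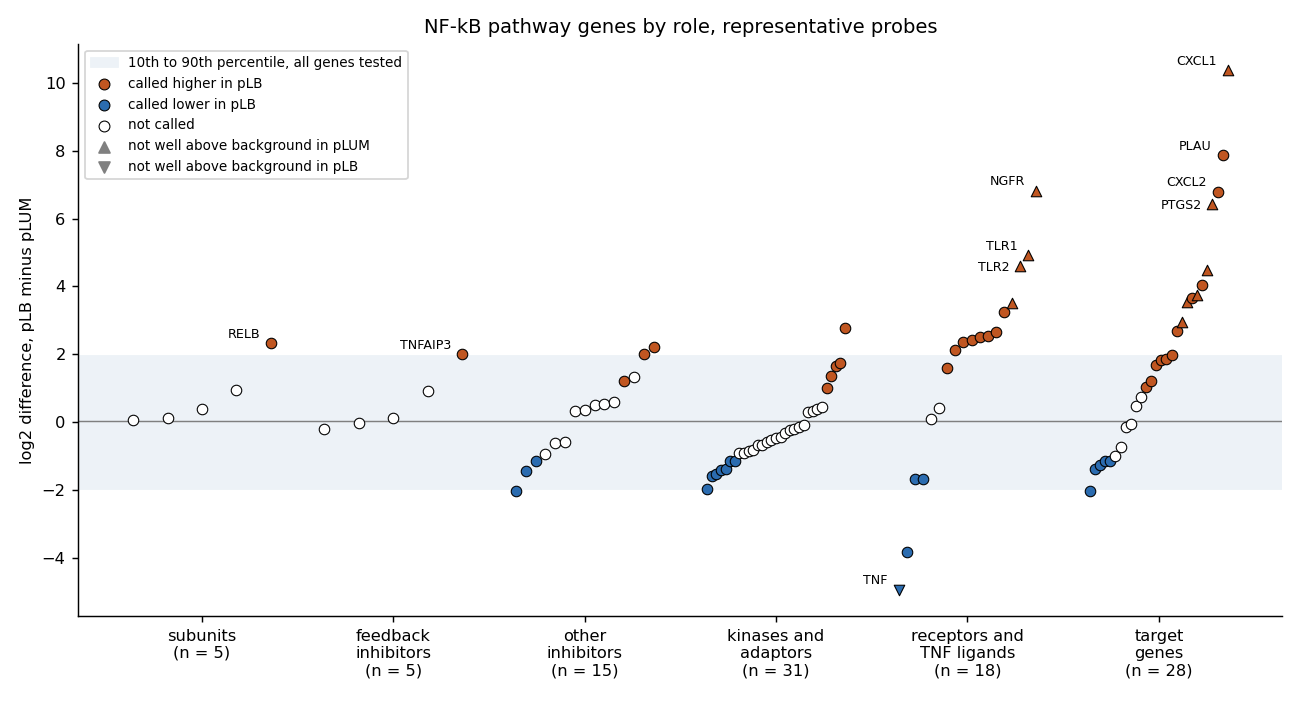
Log2 difference, pLB minus pLUM (vertical axis), of each tested gene by role, from representative probes, against the 10th to 90th percentile of all genes tested (grey band). Filled symbols were called, and triangles mark genes well above background on no array of 1 line. Of the subunits and feedback inhibitors RELB and TNFAIP3 were called in the fit over all arrays. Of 18 receptors and ligands, 12 were called higher and 4 lower, and of 28 targets 17 and 5. Of all genes tested, 22.7% were called higher and 23.0% lower. Some of the listed genes called higher passed the filter through pLB alone.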

How the data were processed

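RNA of 6 samples was measured on single-color Agilent arrays. The authors deposited Feature Extraction 10.10.1.1 output with an intensity per spot, corrected for background within the array and not normalized between arrays. Positions and gene names are those of the files (hg19), and an exon annotation was not used here. Intensities were scaled to the 75th percentile of their array and expressed as log2. Control spots were left out, as were those with an outlier flag (296 to 387 on an array), and replicate spots were averaged. Of 34127 probes, 23105 were well above background on 3 or more arrays, and these entered the fit (limma 3.58.1, R 4.3.3), with Benjamini-Hochberg adjustment over all of them and no covariate. Calls required 2-fold and an adjusted p under 0.05. A gene was represented by its tested probe with the highest mean. For a probe that did not rise well above background in any replicate of 1 line, the fold is a lower bound, taken on each dim array against the lowest signal well above background or the probe's own signal, whichever was higher.

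The members, lists and tests were chosen with earlier results of these data known. All 145 listed genes matched a RefSeq symbol (GRCh38.p14), and CYLD, NFKBID and TRAF1 stand in 2 lists. All members were named, together with the 4 called genes of largest difference in each list, up to 4 called in the rarer direction, and the nearest gene by profile. Alternatives changed background correction, scaling, filter, fold threshold, test, probe rule and blocks, or left out 1 array. The fit was tested on simulated data with 200 of 23099 probes changed, and it recovered 113 of them with 8 false calls. Far fewer probes changed there than were called in the data, so this recovery need not hold for the data. Replicate numbers did not pair the samples. With 3 arrays per line precision is limited, and the smallest two-sided p of an exact permutation test would be 0.1.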

Additional observations from a re-analysis of the deposited data

How the results depend on the processing

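RELB and TNFAIP3 were called higher under all 19 alternatives, with differences of 2.20 to 2.59 and 1.08 to 2.25. The number of members called higher was 4 instead of 2 without a fold threshold, with spike-in scaling and with slide as a block, through NFKB1 and BIRC3, and 1 member, NFKBIZ, was called lower with slide as a block. Leaving out 1 array gave 2 to 3 members higher, NFKB1 being added without pLB replicate 3 or pLUM replicate 3 (1.14 and 1.07), and 0 lower. Scan divided the arrays as slide did and was not run separately. Spike-in scaling moved the median of all genes by 0.25 and normexp correction by -0.24. Relative to that median, NFKB1 was at 0.90 and BIRC3 at 0.88 with spike-in scaling, and 0.88 and 0.10 with normexp. The share of called probes that were higher was 48% in the main analysis and 58.4% with spike-in scaling. Signs of members that were not called turned with normexp for BIRC3 (-0.11), NFKB2 (-0.059), REL (-0.19), the second RELA probe (-0.041) and NFKBIE (0.0036), with quantile normalization for NFKBIA (-0.064) and NFKBIE (0.0058), with spike-in scaling for NFKBIE (0.24) and NFKBIZ (0.054), and with slide as a block for NFKBIE (0.11). Leaving out 1 array also turned signs, over ranges of -0.069 to 0.076 for NFKBIE, -0.47 to 0.21 for NFKBIZ and -0.21 to 0.48 for REL. The cause was not tested.

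Over the 4 pathway lists, 37 genes were called higher and 16 lower. With normexp these were 21 and 10, 24 were higher under a filter on signal above background on all 6 arrays, and 26 were lower without a fold threshold. Targets were 9 higher and 3 lower with normexp, against 17 and 5, 9 higher under that filter, and 2 lower with spike-in scaling and 3 without pLB replicate 2. Receptors and ligands were 7 higher and 0 lower under that filter, against 12 and 4, and 2 lower with normexp. Kinases and adaptors were 2 higher with normexp, against 5, and 13 lower without a fold threshold, against 7. Other inhibitors were 5 in each direction without a fold threshold and 1 lower with normexp, against 3 in each. Without 1 array, 34 to 37 pathway genes were higher and 14 to 18 lower. Probes called higher numbered 5054, with normexp 3004, and 4994 to 5122 without 1 array, while 5476 were lower (5106 to 6159). The methods' t-test gave 4931 probes higher and 5199 lower unadjusted, a setting added after seeing the data, and 4759 and 4861 after Benjamini-Hochberg, with the 2-fold threshold in each case.

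Replicate numbers shared by the lines did not pair the samples, since the correlations of deviations were -0.27, -0.10 and -0.22. With a replicate block, 2 members were called higher and 0 lower, 37 pathway genes were higher and 16 lower, and 4986 probes were higher and 5383 lower.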
